A study of Mus musculus with 10 samples.

Results

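The keratin genes of mouse, the Krt family, were followed in MC38 tumors, which come from a colon carcinoma line of mouse and grew under the skin of C57BL/6 mice. A member was any gene whose symbol is Krt followed by a number and that had an array probe assigned to that 1 symbol. This gave 52 genes with 1 probe each among 19938 genes measured, and 0 keratin probes were shared between symbols. The study set 5 tumors injected with CpG1826 (mice 50, 58, 183, 189 and 595) against 5 tumors injected with PBS (mice 26, 29, 482, 592 and 661), each array being 1 mouse by the number in its title. Values of single tumors are given in that order of mice. CpG1826 is a short synthetic DNA that mouse cells sense through Toll-like receptor 9, because its CpG sites lack methylation. Tumors of about 40 mm2 received CpG1826 at 50 µg, in a PBS volume of 50 µL, and were taken 6 h later. The labels describe only that schedule, so the volume and time of the PBS injections are taken to be the same. All 10 tumors share the mouse strain, the cell line and the site, and no transgene or deletion is labelled.

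Keratins are the intermediate filament proteins of epithelial cells. Each filament is built from pairs of a type I and a type II keratin, and different layers of an epithelium use different pairs. In the skin, Krt5 and Krt14 form the filaments of the basal layer, Krt1 and Krt10 replace them in the layers above, and Krt6a, Krt6b, Krt16 and Krt17 are known for their induction in keratinocytes at wound edges and for their presence in the hair follicle. Krt8 and Krt18 are the pair of simple epithelia such as the colon. Hair follicles add keratins of the inner root sheath and the hard keratins of the hair shaft.

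The deposited values are log2 intensities, with array medians of 6.47 to 6.53. A value belongs to its own probe, so levels were compared between tumors and not between genes. The probes of most keratins were dim: 4 of the 52 had a PBS mean above the median over all genes (6.88), and no detection call was used, so a low value does not mean that a keratin was absent. Of the 14 listed markers of simple and colon epithelium, which the labelled cell line would predict, 1 lay above that median in PBS tumors.

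Of the 52 keratin genes, 10 were higher in CpG1826 tumors and 0 were lower (limma with Benjamini-Hochberg adjustment over all 19938 genes, adjusted p under 0.05), against 3.56% higher, 1.10% lower and 4.66% in either direction among all genes. These 10 keratins were Krt5 and Krt14 of the basal layer, Krt1, Krt10 and Krt77 of the upper layers, all 4 measured wound keratins (Krt6a, Krt6b, Krt16 and Krt17) and Krt79 of the upper hair follicle. Their rises ran from 2.28-fold to 10.9-fold, so all 10 were at least 2-fold higher. Of all 19938 genes, 0.617% both passed and were at least 2-fold higher. For the same 10 genes every CpG1826 tumor lay above every PBS tumor, which was true of 4.35% of all genes, and for 0 keratins did every one lie below, as for 2.42% of all genes. The median log2 fold change over the 52 keratins was 0.07, and over all genes -0.02. None of the 42 other keratins passed, and 31 of the 42 differed by less than 0.15 log2 units in size. By an unadjusted limma p under 0.05, 11 of the 52 keratins were higher, the 10 that passed and Krt80, against 8.13% of all genes. The whole tumor was assayed, so more epithelial cells and more keratin RNA per cell cannot be told apart. Keratinocyte markers outside the keratin family moved with these genes. Of 17 measured, 10 rose and 0 fell, and their mean level was 6.28 to 6.91 in CpG1826 tumors and 5.43 to 5.77 in PBS tumors. Neutrophil markers rose too, 6 of 8, with a mean level of 6.61 to 7.09 in CpG1826 tumors and 5.70 to 6.03 in PBS tumors. The part of either list in the keratin result was not tested.

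**Figure D1:**
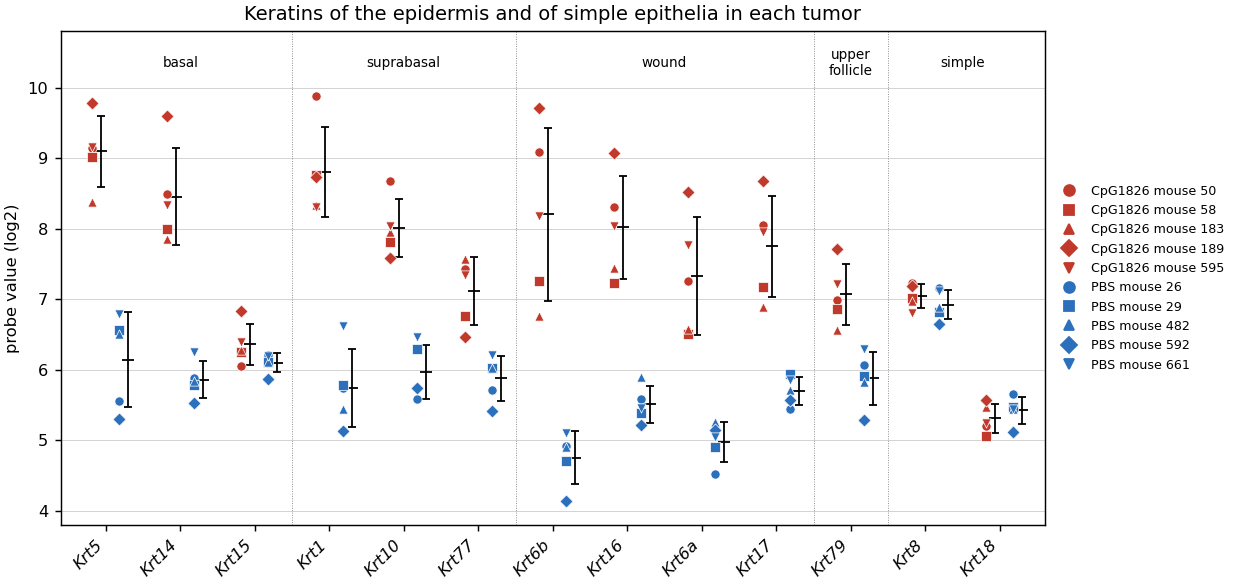
Probe values (log2) of 13 keratins in each of the 10 tumors, with CpG1826 tumors in red left of PBS tumors in blue, a symbol for each mouse, and the mean ± SD of each group in black. The groups are apart for the 10 keratins that rose and overlap for Krt15, Krt8 and Krt18.

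**Figure D2:**
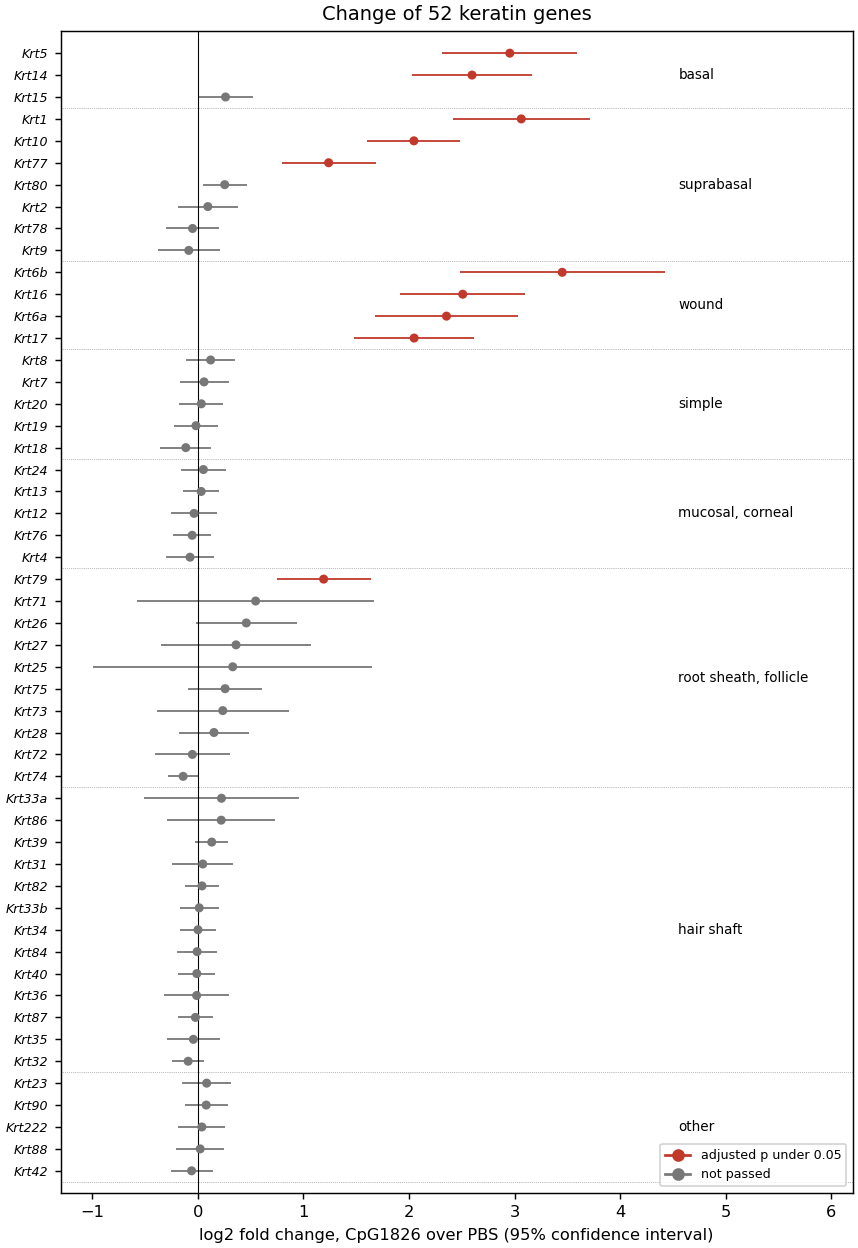
Log2 fold change of all 52 keratins, CpG1826 over PBS, with 95% confidence intervals, ordered by class. The 10 keratins past the threshold (red) lie between 1.19 and 3.45, and the intervals of 39 of the other 42 stay within 1 log2 unit of 0.

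All keratins that rose other than Krt10 and Krt79 lie next to another keratin that rose. In the RefSeq order of the mouse assembly GRCm38.p6, used here only for names and neighbours, chromosome 11 carries 27 genes of this name, the type I keratins, all measured. Chromosome 15 carries another 27, the type II keratins and Krt18, of which 25 were measured. Krt14, Krt16 and Krt17 follow each other on chromosome 11, and the keratins on either side, Krt9 and Krt42, did not pass (-0.09 and -0.06 on the log2 scale). On chromosome 15, Krt6b, Krt6a and Krt5 follow each other between Krt75 (0.26) and Krt71 (0.55), and Krt1 and Krt77 are neighbours between Krt2 (0.09) and Krt76 (-0.05). Krt10 and Krt79 each stand alone. Krt10 lies between Krt28 of the inner root sheath (0.15) and Krt12 of the cornea (-0.04), and Krt79 lies between Krt4 (-0.07) and Krt78 (-0.05). Close copies such as Krt6a and Krt6b, or Krt14, Krt16 and Krt17, can share probe sequence, and the probe sequences were not used here, so the values of such neighbours may not be independent.

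**Figure D3:**
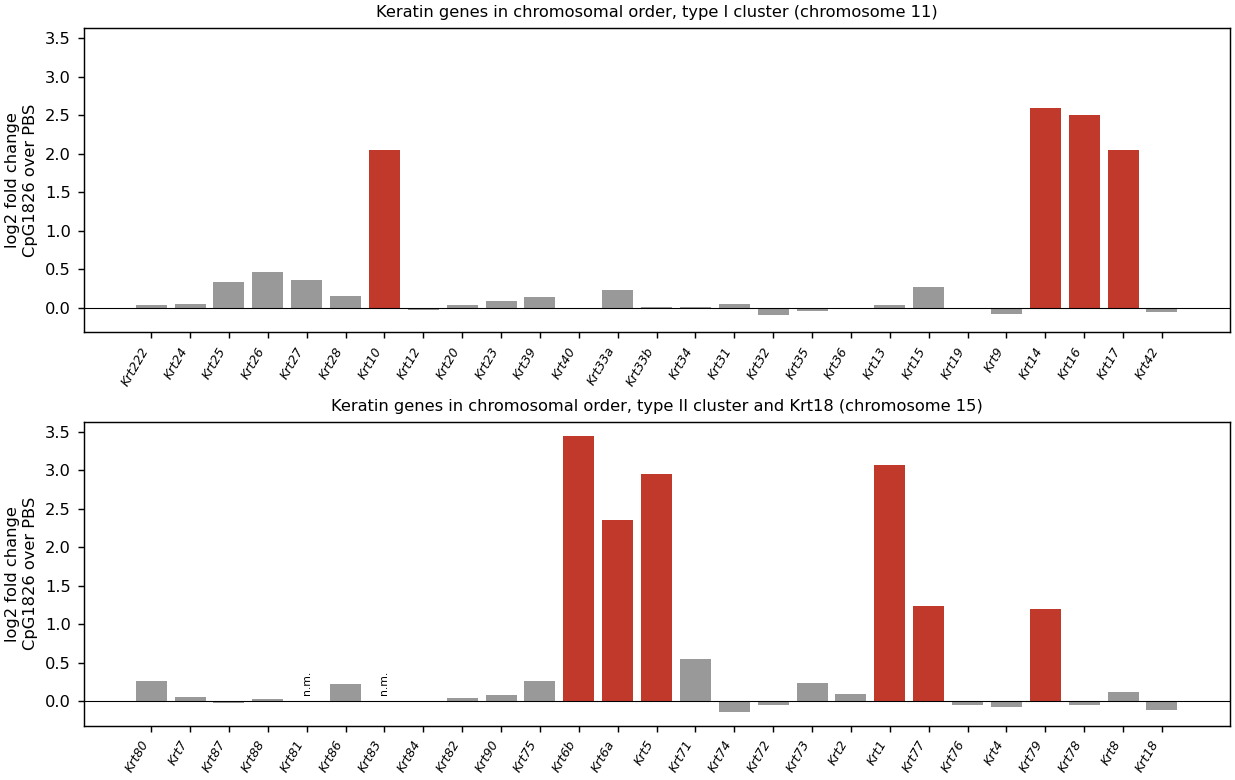
Log2 fold change (CpG1826 over PBS) of each keratin in its order along chromosome 11 (top) and chromosome 15 (bottom), with red bars for genes past the threshold and n.m. for the 2 genes not measured. The red bars include a run of 3 genes on each chromosome.

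RefSeq promoter windows, from 250 bases before to 50 bases after a gene's start, were found for 36 of the 52 keratins (37 windows, GRCm38.p6), 5 of them genes that rose. None was found for Krt1 or for the 4 wound keratins. To set keratins that rose beside others that did not, windows are shown for 5 genes: the basal Krt5, the suprabasal Krt10, the upper follicle Krt79, the inner root sheath Krt71 and the simple Krt8. Capitals mark matches to the TATA box (TATAAA), AP-1 (TGANTCA), the p53-family half-site and the NF-kB motif, each searched on both strands.
Krt5, chr15:101712856-101713155, minus strand: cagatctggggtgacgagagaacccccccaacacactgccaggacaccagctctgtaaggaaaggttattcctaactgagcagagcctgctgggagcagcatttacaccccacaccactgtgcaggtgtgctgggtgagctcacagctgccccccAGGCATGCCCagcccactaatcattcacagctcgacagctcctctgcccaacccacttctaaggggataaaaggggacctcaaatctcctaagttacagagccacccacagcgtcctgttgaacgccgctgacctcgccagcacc
Krt10, chr11:99389315-99389614, minus strand: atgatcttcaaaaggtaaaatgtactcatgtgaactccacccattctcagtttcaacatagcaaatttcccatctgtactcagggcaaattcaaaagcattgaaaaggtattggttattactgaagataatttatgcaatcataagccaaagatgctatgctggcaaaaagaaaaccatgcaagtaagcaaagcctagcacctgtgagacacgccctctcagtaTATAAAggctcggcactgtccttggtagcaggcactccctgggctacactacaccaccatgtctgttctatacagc
Krt79, chr15:101940275-101940574, minus strand: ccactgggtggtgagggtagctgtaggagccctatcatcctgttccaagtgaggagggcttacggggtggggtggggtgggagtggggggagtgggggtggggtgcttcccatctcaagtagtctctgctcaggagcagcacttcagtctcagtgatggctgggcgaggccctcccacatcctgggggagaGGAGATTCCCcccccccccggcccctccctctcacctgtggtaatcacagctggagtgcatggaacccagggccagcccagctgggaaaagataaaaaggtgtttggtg
Krt71, chr15:101743048-101743347, minus strand: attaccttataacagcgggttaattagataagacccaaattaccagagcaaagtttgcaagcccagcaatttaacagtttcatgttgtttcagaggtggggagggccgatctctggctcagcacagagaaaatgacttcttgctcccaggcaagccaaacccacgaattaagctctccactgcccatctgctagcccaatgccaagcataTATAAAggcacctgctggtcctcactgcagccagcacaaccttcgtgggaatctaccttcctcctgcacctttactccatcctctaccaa
Krt8, chr15:102004293-102004592, minus strand: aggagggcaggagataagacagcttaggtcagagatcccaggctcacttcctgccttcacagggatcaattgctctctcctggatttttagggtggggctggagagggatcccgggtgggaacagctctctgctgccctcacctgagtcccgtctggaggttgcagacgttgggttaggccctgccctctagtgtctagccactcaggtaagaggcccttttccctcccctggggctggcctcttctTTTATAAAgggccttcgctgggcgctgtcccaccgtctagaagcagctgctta
The Krt5 window holds a p53-family half-site, the kind of site that p63 binds, starting at position -95 from the gene's start, and 3 of the 37 keratin windows and 8.36% of all 32851 windows hold one. Krt10 has a TATA box at position -26 and Krt71 at position -40, and Krt8 has overlapping matches on both strands next to the start. A TATA box occurred in 19 of 37 keratin windows and in 13.6% of all windows. An NF-kB motif, at position -59 in Krt79, occurred in 3 keratin windows and in 4.51% of all windows. AP-1 matched in 2 keratin windows, both of Krt13, and in 7.81% of all windows, and AP-2 (GCCNNNGGC, not capitalised) in 7 keratin windows and in 16.6% of all windows. Different motifs did not overlap in the windows shown.

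The basal pair rose and the other basal keratin did not pass. Krt5, the type II partner in basal keratinocytes, read 9.14, 9.02, 8.37, 9.79 and 9.17 in CpG1826 tumors, against 5.55, 6.56, 6.51, 5.30 and 6.80 in PBS tumors. Krt5 averaged 9.10 ± 0.50 in CpG1826 and 6.14 ± 0.67 in PBS tumors (SD, n = 5 each), a rise of 7.75-fold (95% confidence interval 4.97 to 12.1, limma adjusted p = 5.29e-05). All 5 CpG1826 tumors lie above all 5 PBS tumors, and the PBS tumors spread more widely. Krt14, its type I partner, read 8.49, 7.996, 7.85, 9.59 and 8.34 in CpG1826 tumors, against 5.88, 5.79, 5.85, 5.52 and 6.26 in PBS tumors. Krt14 averaged 8.45 ± 0.69 in CpG1826 and 5.86 ± 0.26 in PBS tumors (SD, n = 5 each), a rise of 6.05-fold (95% confidence interval 4.09 to 8.94, limma adjusted p = 5.29e-05). For both genes the groups are more than 1.5 log2 units apart, with mouse 189 the highest of all tumors and mouse 183 the lowest of the CpG1826 tumors. Krt15, a type I keratin of basal cells and of hair follicle stem cells, read 6.06, 6.25, 6.28, 6.83 and 6.40 in CpG1826 tumors, against 6.21, 6.11, 6.11, 5.87 and 6.19 in PBS tumors, so that the groups overlap (0.26 ± 0.12 SE on the log2 scale, limma adjusted p = 0.327).

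Of 7 measured keratins of the upper epidermis, 3 rose. Krt1, the type II keratin that cells make as they leave the basal layer, read 9.89, 8.77, 8.34, 8.74 and 8.31 in CpG1826 tumors, against 5.74, 5.78, 5.45, 5.13 and 6.62 in PBS tumors. Krt1 averaged 8.81 ± 0.64 in CpG1826 and 5.74 ± 0.55 in PBS tumors (SD, n = 5 each), a rise of 8.35-fold (95% confidence interval 5.33 to 13.1, limma adjusted p = 4.74e-05). Mouse 50 was the highest tumor here, and mouse 661 the highest PBS tumor. Krt10, the partner of Krt1, read 8.68, 7.82, 7.95, 7.58 and 8.04 in CpG1826 tumors, against 5.58, 6.29, 5.76, 5.74 and 6.47 in PBS tumors. Krt10 averaged 8.01 ± 0.41 in CpG1826 and 5.97 ± 0.39 in PBS tumors (SD, n = 5 each), a rise of 4.13-fold (95% confidence interval 3.04 to 5.60, limma adjusted p = 5.13e-05). The CpG1826 tumors lie above the PBS tumors with mouse 50 highest again. Krt77, a type II keratin related to Krt1, read 7.43, 6.76, 7.58, 6.46 and 7.35 in CpG1826 tumors, against 5.71, 6.03, 6.02, 5.42 and 6.21 in PBS tumors. Krt77 averaged 7.12 ± 0.48 in CpG1826 and 5.88 ± 0.31 in PBS tumors (SD, n = 5 each), a rise of 2.36-fold (95% confidence interval 1.73 to 3.21, limma adjusted p = 0.00282). Its groups are 0.26 log2 units apart, close to touching, and mouse 189, the highest tumor for the basal pair, is the lowest CpG1826 tumor for both Krt10 and Krt77. With a test against a 1.5-fold minimum (limma treat), Krt77 no longer passed (adjusted p = 0.546).

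The remaining upper-layer keratins showed no call. Krt80, a keratin of differentiating epithelial cells, read 7.45, 7.30, 7.27, 7.48 and 6.98 in CpG1826 tumors, against 7.02, 7.09, 6.93, 6.93 and 7.23 in PBS tumors (0.25 ± 0.10 SE, limma adjusted p = 0.206), and it passed only without CpG1826 mouse 595, the one CpG1826 tumor inside the PBS range. Krt2, of late suprabasal cells, Krt78, and Krt9, of palm and sole skin, differed by 0.09, -0.05 and -0.09 on the log2 scale.

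All 4 measured wound keratins rose, and they varied more between CpG1826 tumors than any other keratin that rose. Krt6b read 9.09, 7.26, 6.77, 9.72 and 8.18 in CpG1826 tumors, against 4.92, 4.70, 4.91, 4.13 and 5.10 in PBS tumors. Krt6b averaged 8.20 ± 1.23 in CpG1826 and 4.75 ± 0.37 in PBS tumors (SD, n = 5 each), a rise of 10.9-fold (95% confidence interval 5.57 to 21.4, limma adjusted p = 0.000413). This was the second largest rise among all 19938 genes, and the CpG1826 tumors themselves span almost 3 log2 units. Krt6a, the gene next to it, read 7.26, 6.51, 6.58, 8.52 and 7.77 in CpG1826 tumors, against 4.52, 4.91, 5.25, 5.15 and 5.04 in PBS tumors. Krt6a averaged 7.33 ± 0.84 in CpG1826 and 4.98 ± 0.28 in PBS tumors (SD, n = 5 each), a rise of 5.11-fold (95% confidence interval 3.20 to 8.18, limma adjusted p = 0.000507). Mice 58 and 183 are the low CpG1826 tumors, still above every PBS tumor. Krt16, the type I partner of the Krt6 proteins, read 8.31, 7.23, 7.45, 9.07 and 8.04 in CpG1826 tumors, against 5.58, 5.38, 5.90, 5.21 and 5.46 in PBS tumors. Krt16 averaged 8.02 ± 0.73 in CpG1826 and 5.51 ± 0.26 in PBS tumors (SD, n = 5 each), a rise of 5.69-fold (95% confidence interval 3.77 to 8.59, limma adjusted p = 0.000108). The groups are again apart, with mouse 189 on top. Krt17, which is also made in the follicle, read 8.06, 7.18, 6.90, 8.67 and 7.96 in CpG1826 tumors, against 5.44, 5.94, 5.71, 5.58 and 5.86 in PBS tumors. Krt17 averaged 7.75 ± 0.72 in CpG1826 and 5.70 ± 0.20 in PBS tumors (SD, n = 5 each), a rise of 4.14-fold (95% confidence interval 2.78 to 6.14, limma adjusted p = 0.000382). In each of the 4 genes mouse 189 was the highest tumor, and mouse 58 or mouse 183 the lowest of the CpG1826 tumors. The SD between CpG1826 tumors was 1.23 for Krt6b, 0.84 for Krt6a, 0.73 for Krt16 and 0.72 for Krt17, against 0.37, 0.28, 0.26 and 0.20 between PBS tumors. Over all 10 keratins that rose, the SD was larger in CpG1826 tumors in 9, the exception being Krt5 (0.50 in CpG1826 tumors and 0.67 in PBS tumors).

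The CpG1826 tumors did not keep 1 order across the layers. Averaged over the genes that rose in each class and given as the distance from the CpG1826 mean, mouse 189 stood at 1.17 log2 units for the wound keratins and 0.91 for the basal pair but at -0.39 for the suprabasal keratins. Mouse 50 stood at 0.69 for the suprabasal keratins, 0.35 for the wound keratins and 0.04 for the basal pair. Mouse 183 was low for the wound (-0.90) and basal (-0.66) keratins and near the mean for the suprabasal ones (-0.02), and mouse 58 was below the mean for the wound (-0.78), basal (-0.27) and suprabasal (-0.20) keratins. Mouse 595 stayed close to the mean, at -0.02, -0.08 and 0.16 for the basal, suprabasal and wound keratins. Lor, which encodes loricrin of the cornified layer and was picked out after its values were seen, had its highest CpG1826 value in mouse 50 (7.13) and its lowest in mouse 189 (6.33), as Krt10 did. Other keratinocyte markers of the same list, also picked out afterwards, did not share that order. Sbsn (6.78) and Dmkn (7.62) were highest in mouse 189, and Krtdap (6.37) in mouse 595. In the PBS group, mouse 661 was the highest tumor for 7 of the 10 keratins and mouse 592 the lowest for 7.

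Differences within each tumor were compared for 12 pairs, to ask which keratins changed unequally, with an exact permutation test over the 10 tumors (two-sided, smallest possible p = 0.00794) and adjustment over the 12. The difference of Krt15 minus Krt5 was -2.74 ± 0.38 in CpG1826 tumors and -0.04 ± 0.61 in PBS tumors (SD, n = 5 each), a change of -2.69 ± 0.32 (SE). Krt8 minus Krt5 changed by -2.83 ± 0.35 and Krt18 minus Krt14 by -2.71 ± 0.29 (SE), and in these 3 pairs every CpG1826 tumor lay below every PBS tumor. Each of the 3 sets a keratin already seen to rise against one that did not, so they restate the values of the single genes and are given as a description, with no p. Krt6b minus Krt6a was 0.87 ± 0.65 in CpG1826 tumors and -0.22 ± 0.53 in PBS tumors (SD, n = 5 each), a change of 1.10 ± 0.38 (SE, exact permutation adjusted p = 0.0476). That pair's groups overlap, and its call was lost when any of 8 single mice was left out (exact permutation adjusted p of 0.0476 to 0.119 over the 10 such tests). The adjustment over the 12 also covers the 3 pairs that restate single genes, each at the smallest possible p, which lowers the adjusted p of the others. The call of Krt6b minus Krt6a (unadjusted exact permutation p = 0.0159) depends on their being included.

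No unequal change was detected between the basal pair and most of the keratins that rose with it. Krt14 minus Krt5 changed by -0.36 ± 0.27, Krt1 minus Krt5 by 0.11 ± 0.39 and Krt6b minus Krt5 by 0.50 ± 0.43 (SE, exact permutation adjusted p = 0.307, 0.833 and 0.324). Krt6a minus Krt5 changed by -0.60 ± 0.36, Krt10 minus Krt14 by -0.55 ± 0.43 and Krt16 minus Krt14 by -0.09 ± 0.17 (SE, exact permutation adjusted p = 0.218, 0.286 and 0.727). Krt17 minus Krt14 changed by -0.55 ± 0.17 (SE, exact permutation adjusted p = 0.0762), and by -0.63 with a call without CpG1826 mouse 595 (exact permutation adjusted p = 0.0238). That call also depends on including the pairs that restate single genes in the adjustment, so no unequal change is concluded from it. A pair that missed the threshold is not shown to have changed equally. Krt8 minus Krt18 changed by 0.24 ± 0.12 (SE, exact permutation adjusted p = 0.190).

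**Figure D4:**
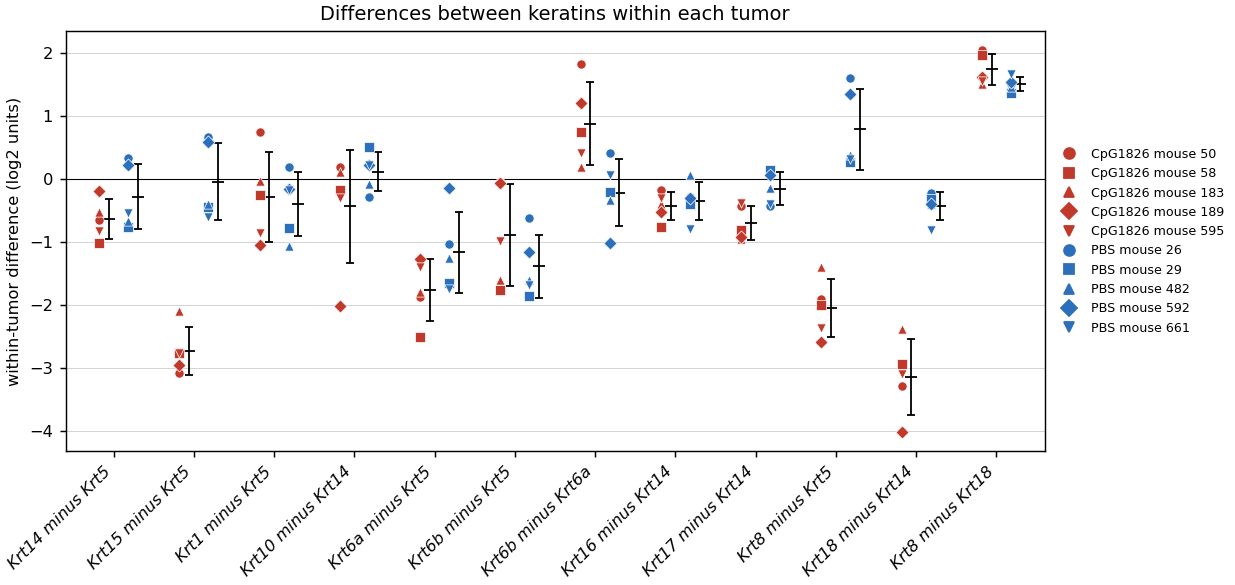
Difference between the log2 values of 2 keratins within each tumor, for 12 pairs, with CpG1826 tumors in red left of PBS tumors in blue and the mean ± SD in black. The groups are apart for Krt15 minus Krt5, Krt8 minus Krt5 and Krt18 minus Krt14, where the CpG1826 tumors are lower, and mouse 189 stands low at -2.01 for Krt10 minus Krt14.

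Among 10 measured keratins of the root sheaths and upper follicle, Krt79 alone rose. Krt79, a marker of cells that line the hair canal above the follicle, read 6.99, 6.87, 6.56, 7.71 and 7.21 in CpG1826 tumors, against 6.07, 5.91, 5.83, 5.28 and 6.30 in PBS tumors. Krt79 averaged 7.07 ± 0.43 in CpG1826 and 5.88 ± 0.38 in PBS tumors (SD, n = 5 each), a rise of 2.28-fold (95% confidence interval 1.68 to 3.11, limma adjusted p = 0.00378). Its groups are 0.26 log2 units apart, and it did not pass against a 1.5-fold minimum (limma treat adjusted p = 0.783). The other 9 did not pass, and in 8 of them the highest value came from the same tumor. Krt71, a type II keratin of the inner root sheath, read 5.82, 8.79, 5.72, 5.73 and 5.61 in CpG1826 tumors, against 5.30, 5.54, 6.72, 5.56 and 5.81 in PBS tumors. Krt25, a type I keratin of the same sheath, read 4.77, 8.32, 4.60, 4.96 and 4.30 in CpG1826 tumors, against 4.96, 4.84, 6.07, 4.63 and 4.80 in PBS tumors. Krt27, another type I sheath keratin, read 5.77, 7.95, 6.10, 6.08 and 5.89 in CpG1826 tumors, against 5.96, 5.70, 6.37, 5.86 and 6.07 in PBS tumors. In these 3 genes CpG1826 mouse 58 stood far above the other tumors of its group, and PBS mouse 482 was the highest PBS tumor.

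CpG1826 mouse 58 was the highest of the 10 tumors in 8 of those 9 keratins, and PBS mouse 482 was second in 5. The exception was Krt74, which RefSeq lists as a transcribed pseudogene. In mouse 58 Krt73 read 7.32, against 5.36 to 5.70 in the other CpG1826 tumors, and Krt33a, a hard keratin of the hair shaft, read 7.66, against 5.18 to 5.95. Over the 13 hair shaft keratins, however, mouse 58 was the highest tumor in 5 and mouse 189 in 4. Keratins other than Krt71, Krt27 and Krt79 were picked out in this class, and Krt33a in the next, after their values were seen. Of 11 measured follicle genes outside the family, mouse 58 was the highest tumor in 5. Tchh, which encodes trichohyalin of the inner root sheath, read 8.89 in mouse 58 and 6.01 to 6.51 in the other CpG1826 tumors, and 6.91 in PBS mouse 482 and 5.92 to 6.34 in the other PBS tumors. Gprc5d, a receptor made in hard keratinised structures, read 5.39 in mouse 58 and 3.50 to 4.20 in the other CpG1826 tumors. Lhx2 and Sox21, transcription factors of the follicle, differed by -0.08 and -0.01 between the groups, and 0 of the 11 passed the test or an unadjusted p under 0.05. Without mouse 58, Krt71 differed by -0.07 and Krt27 by -0.04 on the log2 scale, against 0.55 ± 0.52 and 0.36 ± 0.33 (SE) with all tumors. The 10 keratins that rose were the same 10 without mouse 58, and also without mouse 58 and PBS mouse 482 together, a choice made after seeing the data.

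**Figure D5:**
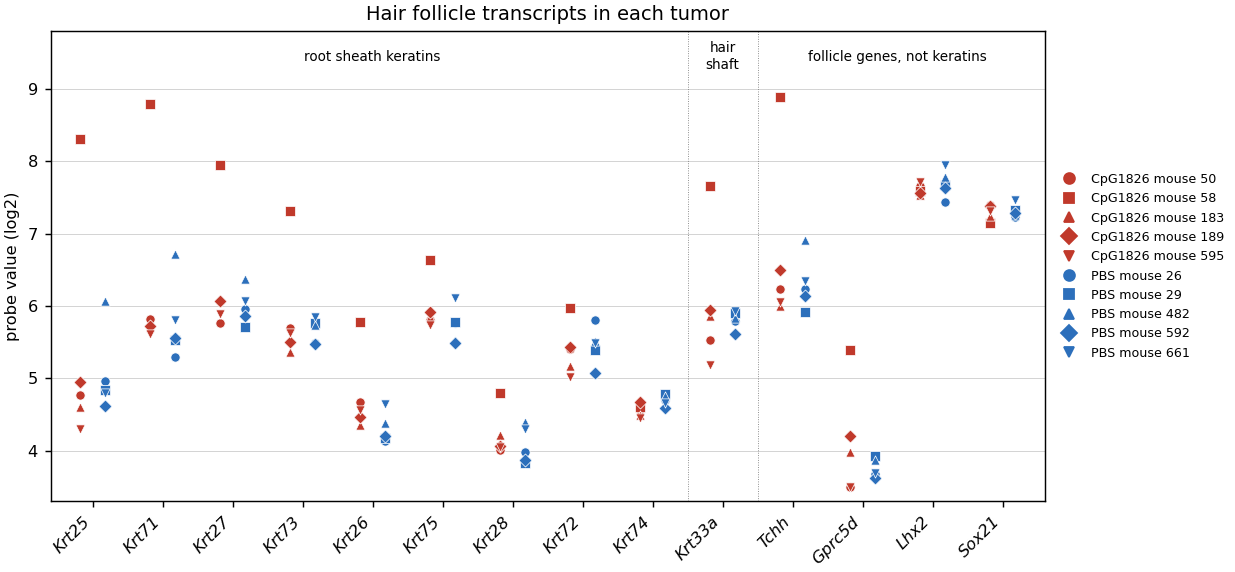
Probe values (log2) of 9 root sheath keratins, the hair shaft keratin Krt33a and 4 follicle genes outside the family in each tumor, with CpG1826 tumors in red left of PBS tumors in blue. CpG1826 mouse 58 (red squares) stands above the other tumors for Krt25 (8.32), Krt71 (8.79), Krt27 (7.95) and Tchh (8.89), and PBS mouse 482 (blue upward triangles) is the highest PBS tumor for these 4.

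None of the 13 hair shaft keratins passed, with log2 fold changes of -0.09 to 0.22. Krt33b, Krt87 and Krt34 differed by 0.01 ± 0.09, -0.02 ± 0.08 and 0.00 ± 0.08 (SE). Krt33a and Krt33b are close copies that also may share probe sequence.

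The 5 keratins of simple epithelia did not pass. Krt8, the type II partner made by colon cells, read 7.24, 7.02, 6.98, 7.19 and 6.80 in CpG1826 tumors, against 7.16, 6.83, 6.89, 6.64 and 7.11 in PBS tumors. Its partner Krt18 read 5.20, 5.06, 5.47, 5.57 and 5.25 in CpG1826 tumors, against 5.66, 5.47, 5.44, 5.12 and 5.44 in PBS tumors. The groups overlap for both, at 0.12 ± 0.11 (95% confidence interval -0.11 to 0.36, limma adjusted p = 0.668) and -0.11 ± 0.11 (-0.36 to 0.13, limma adjusted p = 0.697). Krt7, of ducts, Krt19, of ducts and glands, and Krt20, of the gut lining, differed by 0.06, -0.02 and 0.03 on the log2 scale. The intervals of all 5 exclude a change of 1 log2 unit on these probes.

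Keratins of other stratified epithelia did not pass either. Krt12 of the cornea differed by -0.04, and Krt13 and Krt4, a pair of mucosal linings, by 0.03 and -0.07 on the log2 scale. Of the 5 remaining keratins, Krt42 of the nail region, Krt88 and Krt90 differed by -0.06, 0.02 and 0.08.

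Proteins that tie keratin filaments to cell junctions changed in part. Of 13 measured, 4 rose and 0 fell, against 3.56% and 1.10% of all genes (median 0.17 on the log2 scale, lowest -0.15 and highest 1.97). Col17a1, Pkp1 and Itgb4 are also among the keratinocyte markers outside the family, so the rise of Col17a1 is counted in both lists. Dst, Plec and Itgb4 were picked out here after their values were seen. Dsp, desmoplakin, which links keratins to desmosomes, read 7.99, 7.78, 7.47, 8.56 and 7.68 in CpG1826 tumors, against 5.80, 6.06, 6.21, 5.38 and 6.17 in PBS tumors. Dsp averaged 7.89 ± 0.42 in CpG1826 and 5.92 ± 0.35 in PBS tumors (SD, n = 5 each), a rise of 3.92-fold (95% confidence interval 2.93 to 5.26, limma adjusted p = 5.13e-05). Its groups do not overlap, and mouse 189 is again the highest. Col17a1, a hemidesmosomal collagen, rose by 0.56, Jup, plakoglobin, by 0.42 and Dst, dystonin, by 0.28, while Plec and Itgb4, of the hemidesmosome, differed by -0.15 and 0.01. Among the keratinocyte markers outside the family, Krtdap rose by 2.40 ± 0.13, Dsc3, a desmosomal cadherin, by 2.29 ± 0.22, and Perp, a desmosome protein, by 1.57 ± 0.16 (SE, log2 scale). The median of that list was 0.72.

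Transcription factors known to act on keratin genes or epidermal identity did not pass. Of 14 measured, 0 passed, with a median of 0.18, and 7 were higher by the unadjusted p (under 0.05), as were 8.13% of all genes. Klf4 and Nfe2l2 differed by 0.31 ± 0.13 and 0.32 ± 0.11 (SE, limma adjusted p = 0.253 and 0.143), and Trp63, chosen after its values were seen, which encodes the p63 factors of basal cells, by 0.25 ± 0.10 (SE, limma adjusted p = 0.224). The other intermediate filament genes did not pass. Of 16 measured, 0 passed, and 3 were lower by the unadjusted p, as were 7.43% of all genes, with log2 fold changes of -0.21 to 0.04. Vim, vimentin of mesenchymal and tumor cells, differed by -0.02 ± 0.06, and Lmna, a nuclear lamin, by -0.07 ± 0.06 (SE).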

How the data were processed

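RNA from 10 whole tumors was hybridised to Affymetrix whole-transcript arrays after labelling with the matching kit, per the labels' protocols. The values are on a log2 scale, as the deposited numbers show (array medians of 6.47 to 6.53), and limma and R 2.7.1 are named in the submitters' processing notes. The sources used here do not give how probes were background-corrected, normalized and summarised. Such steps can compress low values, so fold changes of dim keratins may be understated, which was not tested. Arrays give no read depth, and 5 arrays a group limit the precision. Of 35512 probes, 21789 have 1 gene symbol in the platform annotation, 1621 several and 12102 none. Probes with 1 symbol gave 19938 genes, each read from its probe with the highest mean, and every keratin had a single probe. No 2 arrays held identical values (0 identical pairs), and array pairs correlated at 0.980 to 0.994. Each array is a separate mouse by its title.

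All genes were fitted with limma 3.58.1 in R 4.3.3 (lmFit, eBayes, CpG1826 minus PBS), with Benjamini-Hochberg adjustment over all genes and a threshold of 0.05. Intervals are 95% confidence intervals from the fit. Differences of keratin pairs were tested by exact permutation over the 252 groupings of the tumors. Promoter windows came from RefSeq (GRCm38.p6). The members, lists and pairs were chosen with earlier results of these data known. The rule named every keratin past the threshold, 15 common keratins whatever their values, the brightest members of smaller classes, and in each other list up to 3 called genes, or the 2 brightest where none was called. Other keratins are named as gene neighbours or were picked after their values were seen. Alternatives covered normalization, filters, probe choice, the prior, array weights, thresholds and each mouse left out.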

Additional observations from a re-analysis of the deposited data

Results flagged for a closer look

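Of 104 groups of 5 tumors tested (each keratin in each group), 9 held 1 tumor far from the other 4, where chance alone gives about 1 in 20 groups. In 7 of the 9, the high tumor was CpG1826 mouse 58 and the gene a keratin of the root sheaths. There Krt71 read 8.79 (5.61 to 5.82 in the other CpG1826 tumors), Krt25 read 8.32 (4.30 to 4.96) and Krt27 read 7.95 (5.77 to 6.10). In the same tumor Krt73 read 7.32 (5.36 to 5.70), Krt75 read 6.63 (5.74 to 5.92), Krt26 read 5.78 (4.36 to 4.67) and Krt28 read 4.80 (4.01 to 4.22). Krt25 was also high in PBS mouse 482, at 6.07, against 4.63 to 4.96 in the other PBS tumors. Krt76, a keratin of mucosal linings, read 4.26 in CpG1826 mouse 189 and 3.85 to 3.96 in the other CpG1826 tumors. None of the 10 keratins that rose had such a tumor in either group.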

How the results depend on the processing

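The 10 keratins that rose were the same 10, with 0 lower, under a further quantile normalization, median centring, a lower-quartile filter, a trended robust prior, array weights, a threshold of 0.01 and with each mouse left out in turn (10 to 11 called and 10 to 11 without overlap, Krt80 being the gain in calls without CpG1826 mouse 595). Other probe choices gave the same 10, but every keratin had a single probe, so its values could not change there. With genes below the median level left out, 8 keratins were tested and 4 were called, and 4 did not overlap. Krt6a, Krt6b, Krt16, Krt17, Krt77 and Krt79 were removed by that filter. A test against a 1.5-fold minimum called 8. Over all genes, 710 higher and 220 lower calls became 720 and 364 after quantile normalization, 727 and 338 with the median filter, 794 and 306 with the trended prior, 800 and 306 with array weights, 407 and 64 at a threshold of 0.01, 80 and 2 against the 1.5-fold minimum, 505 and 112 without CpG1826 mouse 58 and PBS mouse 482, and 558 to 667 and 121 to 209 with 1 mouse left out. The cause was not tested.

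Signs turned only among differences that had not passed. With array weights Krt33b became -0.033 and Krt34 -0.028. Without mice 58 and 482 Krt13 became -0.0070, Krt33b -0.021 and Krt42 0.025. With 1 mouse left out, Krt71 ran between -0.067 and 0.78, Krt27 between -0.036 and 0.51, Krt12 between -0.10 and 0.021, Krt13 between -0.019 and 0.068, Krt19 between -0.070 and 0.076, Krt20 between -0.047 and 0.083, Krt7 between -0.026 and 0.11, Krt33b between -0.048 and 0.063, Krt34 between -0.038 and 0.058, Krt42 between -0.12 and 0.0027, Krt87 between -0.069 and 0.028, Krt88 between -0.043 and 0.089, Krt1 minus Krt5 between -0.15 and 0.30, and Krt16 minus Krt14 between -0.20 and 0.013. Of the pairs, 4 passed (3 of them those that restate single genes), and 3 to 4 with 1 mouse left out. After quantile normalization 3 passed, Krt6b minus Krt6a being lost (exact permutation adjusted p = 0.0714). No paired analysis was possible because the 2 groups share no replicate number.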

Other observations

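Of 14 markers of simple and colon epithelium, 3 rose and 0 fell, against 3.56% and 1.10% of all genes. The other 11 did not pass, and over the 14 the log2 fold change ran from -0.32 to 0.63, with a median of 0.00. Cdh1, E-cadherin of most epithelia, averaged 7.36 ± 0.19 in CpG1826 tumors and 6.74 ± 0.27 in PBS tumors (SD, n = 5 each, limma adjusted p = 0.0102). Esrp1, an epithelial splicing factor, differed by 0.52 ± 0.10 and Epcam by 0.32 ± 0.09 (SE, log2 scale, limma adjusted p = 0.0104 and 0.0485). For Epcam the groups overlap, with PBS mouse 26 (5.36) above CpG1826 mouse 183 (5.32). Of 7 sebaceous gland markers, 2 rose (3.56% of all genes did), namely Far2 by 0.62 ± 0.11 and Fa2h by 0.46 ± 0.11, both enzymes of lipid synthesis (SE, limma adjusted p = 0.00472 and 0.0347). The other 5 did not pass, and over the 7 the log2 fold change ran from -0.08 to 0.62, with a median of 0.17.

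Melanocyte, adipocyte, skeletal muscle and fibroblast markers gave no calls. Among 5 melanocyte markers 0 passed, as for 6 of adipocytes and 7 of skeletal muscle, and at an unadjusted p under 0.05 there were 0, 0 and 1, all lower, as were 7.43% of all genes. Pmel, a melanosome protein, differed by 0.06 and Mlana by -0.06, Fabp4, a fatty acid carrier of fat cells, by 0.05 and Cidec by -0.19, and the muscle genes Acta1 and Tnnt3 by -0.25 and -0.34. Of 6 fibroblast markers 0 passed and 1 was lower at an unadjusted p under 0.05, with a list mean of 10.73 to 11.19 in CpG1826 tumors and 11.00 to 11.19 in PBS tumors. Col1a1 differed by -0.28 and Dcn by 0.09. Of 6 endothelial markers 1 fell (1.10% of all genes did), Tek by 0.34. The other 5 did not pass, and over the 6 the log2 fold change ran from -0.34 to 0.37, with a median of 0.03. Of 7 macrophage markers 1 fell (1.10% of all genes did), Csf1r, the receptor for colony-stimulating factor, by 0.46. The other 6 did not pass, and over the 7 the log2 fold change ran from -0.46 to 0.06, with a median of -0.09. Among the neutrophil markers S100a8 rose by 2.13 ± 0.23, Cxcr2 by 1.64 ± 0.19 and S100a9 by 1.45 ± 0.18 (SE, log2 scale). S100a8 and S100a9 are also made by keratinocytes.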
